A study of Mus musculus with 4 samples.

Results

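Within the bodies of protein-coding genes, 8174 regions of transcription initiation were called in yolk sac and not in liver, away from annotated start sites and outside dense clusters. They were taken from 61095 regions, made by merging the peaks of 4 PRO-seq peak lists wherever they overlapped by at least 1 bp. A member was called in both yolk sac lists and in neither liver list, had no annotated transcript start within 500 bp, and had its midpoint inside a protein-coding gene. Such yolk-sac-only regions were chained when the gap between neighbours was 12.5 kb or less, and members stood in chains of 1 to 4 regions. The members were therefore chosen by the peak calls of these 4 lists, and statements on where they were called are descriptions without a test.

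PRO-seq maps engaged RNA polymerase by a nuclear run-on, here on isolated chromatin from mouse embryos at stage E14.5. There were 2 liver libraries and 2 yolk sac libraries, and each was made from the tissue of 6 pooled embryos, so a replicate is a pool. All 4 came from C57BL/6J mothers. The fathers were of mixed C57BL/6J and CAST/EiJ background and were chosen to carry CAST/EiJ polymorphisms alone at the Dlk1/Gtl2 locus of chromosome 12; the strain label reads "Mixed C57BL/6h and CAST/EiJ". No group carried a targeted allele or a treatment, per the labels, and the peaks were not resolved by allele. The 2 tissues served here as each other's reference.

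As background, active enhancers are transcribed from both strands into short unstable RNA, and many lie in introns of the gene they act on or of a neighbouring gene. The file names carry the word dREG, a classifier that finds promoters and enhancers from the shape of run-on reads on both strands. The yolk sac wall has an outer visceral endoderm, which absorbs and secretes nutrients, lipoproteins and serum proteins, and an inner mesoderm with mesothelium, vessels and blood. The liver at this age is a main site of red cell formation.

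By the rule, no member had a GENCODE M21 start within 500 bp. A small set was found at a start that RefSeq lists and GENCODE M21 does not, by a RefSeq promoter table that held 77.1% of host symbols. Of the 8174 members, 74 held such a RefSeq start, a share of 0.905% (95% Wilson interval 0.722% to 1.13%). The share was 1.75% among intragenic liver-only regions and 2.77% among intragenic distal regions called in all 4 lists. In 9 of the 74 the RefSeq start belonged to the host gene, in 65 to another symbol, and in 61 it ran antisense to the host. The sequences printed next show some of these starts, in part beside the most CpG-rich other start of the same gene. They were chosen after the values were seen, from starts of the host gene in high-ranking members.

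Each line gives 200 bases, from 250 to 51 bases before the start on the strand of the gene, 5′ to 3′, from the RefSeq promoter table of GRCm38.p6, with each CpG in capitals. Ece1, which encodes endothelin converting enzyme, has a start inside a member at chr4:137919701-137921702 (window chr4:137920543-137920742, + strand), and its most CpG-rich other start lies upstream (window chr4:137862030-137862229, + strand). Cyth1, which encodes the Arf exchange factor cytohesin, has a start inside a member at chr11:118201251-118203352 (window chr11:118202781-118202980, - strand). Its most CpG-rich other start is at the 5′ end (window chr11:118248609-118248808, - strand). The window of Ppfibp2, a liprin scaffold gene, is chr7:107665228-107665427 (+ strand), inside a member at chr7:107663751-107667752. The window of Gsn, which encodes the actin-severing protein gelsolin, is chr2:35266494-35266693 (+ strand), inside a member at chr2:35266001-35269402.
Ece1 start inside a member: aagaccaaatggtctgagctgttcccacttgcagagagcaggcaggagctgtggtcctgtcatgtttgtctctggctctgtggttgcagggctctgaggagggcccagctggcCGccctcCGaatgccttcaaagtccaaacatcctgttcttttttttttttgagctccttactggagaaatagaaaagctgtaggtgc
Ece1 other start: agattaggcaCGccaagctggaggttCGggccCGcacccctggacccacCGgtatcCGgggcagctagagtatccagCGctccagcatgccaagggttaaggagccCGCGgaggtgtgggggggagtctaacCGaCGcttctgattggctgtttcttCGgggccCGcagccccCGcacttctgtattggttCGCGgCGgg
Cyth1 start inside a member: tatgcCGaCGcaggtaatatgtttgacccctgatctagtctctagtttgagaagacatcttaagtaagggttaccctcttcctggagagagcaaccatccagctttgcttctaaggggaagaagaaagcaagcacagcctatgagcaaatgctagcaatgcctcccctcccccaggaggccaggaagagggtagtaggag
Cyth1 other start: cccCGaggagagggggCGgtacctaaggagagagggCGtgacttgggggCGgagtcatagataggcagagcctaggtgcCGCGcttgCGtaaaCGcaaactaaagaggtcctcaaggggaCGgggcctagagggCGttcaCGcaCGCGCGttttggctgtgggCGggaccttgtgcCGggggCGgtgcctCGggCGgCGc
Ppfibp2 start inside a member: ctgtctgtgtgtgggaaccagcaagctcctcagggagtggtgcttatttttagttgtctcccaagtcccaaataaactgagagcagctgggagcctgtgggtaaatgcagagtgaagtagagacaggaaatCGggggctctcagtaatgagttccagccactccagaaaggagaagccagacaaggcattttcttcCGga
Gsn start inside a member: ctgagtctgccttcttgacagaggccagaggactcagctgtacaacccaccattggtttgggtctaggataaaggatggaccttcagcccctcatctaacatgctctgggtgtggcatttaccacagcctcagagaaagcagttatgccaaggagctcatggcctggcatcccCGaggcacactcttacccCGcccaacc

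The Ece1 window at the member held 2 CpG dinucleotides and 51.5% G and C, and the window of its other start held 16 and 65.0%. For Cyth1 the counts were 2 and 20, with 50% and 67.0% G and C. The Ppfibp2 and Gsn windows held 2 each. The other starts of Ece1 and Cyth1 were picked for the most CpG, which favoured a higher count there. A region called in all 4 lists overlapped the other start of Ece1 and that of Cyth1, so each gene had an initiation region shared by the tissues at its CpG-rich start and a yolk-sac-only one at the CpG-poor start. Over the full 250 bases before each start, the ratio of observed to expected CpG passed 0.6 in 6 of the 74 windows at members, or 8.11% (3.77% to 16.6%). It passed that value in 11153 of all 32851 windows of the table, or 34.0%, in 0 of 34 windows at intragenic liver-only regions and in 5 of 42 at intragenic regions called in all 4. The median share of G and C was 49.6% at members and 52.4% over the table. Starts inside members thus had fewer CpG-rich windows than RefSeq starts as a whole, as did starts inside the other intragenic distal classes.

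In the same 250 bases, 25 motifs were searched on both strands, and at 22 of them the interval at members held the share of the whole table. The 3 outside it were GGGCGG, the SP1 letters (18.9% of windows at members, 32.7% of all), the E-box CAGCTG (21.6% and 13.0%) and TTGCNNAA, a loose form of the C/EBP site (17.6% and 9.56%). In the same order, the shares were 21.4%, 14.3% and 21.4% at intragenic regions called in all 4. At intragenic liver-only regions they were 0%, 17.6% and 5.88%. With so many motifs and 74 windows, these shares are a description only. GGAATG, the core that TEAD factors recognise, was in 13 of the 74 windows (17.6%, interval 10.6% to 27.8%), in 12.6% of all windows and in 2 of 34 windows at liver-only regions (5.88%, interval 1.63% to 19.1%). At intragenic regions called in all 4 it was in 7 of 42 (16.7%), close to the share at members. The letters AGATAA, recognised by blood and endoderm zinc finger factors of the GATA family, were in 4 of the 74 windows (5.41%, interval 2.12% to 13.1%), in 9.99% of all windows and in 6 of 34 at liver-only regions (17.6%, interval 8.35% to 33.5%). For both, the interval at members held the share of the whole table. The AP-1 letters TGANTCA were in 6 of the 74 (8.11%) and in 6.75% of all windows. The motifs spelled out here do not contain one another, they were picked after their shares were seen, and a match is only a run of letters. The other members have no entry in the promoter table, and their sequences were not used here.

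The yolk-sac-only call was the most frequent tissue-only call in these lists. Among all merged regions, 33.0% were called in both yolk sac lists and in neither liver list, and 6.62% showed the reverse. Among the 22414 distal regions inside protein-coding genes, 8795 (39.2%) were yolk-sac-only, 1976 (8.82%) liver-only and 1514 were called in all 4. The members are the 8174 of those 8795 that stood outside clusters of 5 or more, and the other 621 stood in such clusters. A further 5006 intragenic distal regions were called in yolk sac replicate 1 alone and 1733 in yolk sac replicate 2 alone, so many calls of this kind were made in only 1 of the yolk sac lists. In bulk tissue, fewer cells of a type and less nascent RNA per cell cannot be told apart.

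The lists differed in length, which bears on every count given here. The liver lists held 24863 and 24333 peaks, the yolk sac lists 50525 and 43055. None gives read counts, so the depth is unknown. Marker promoters followed the tissue labels in part. Of 8 visceral endoderm markers, 6 and 4 had a promoter peak in liver, whereas 8 and 8 did in yolk sac. Of 6 erythroid markers, liver had 6 and 6 and yolk sac 1 and 1, and of 5 hepatocyte markers liver had 3 and 3 and yolk sac 2 and 2. Mesenchymal markers (5, 6, 7 and 7 of 7), endothelial markers (4, 5, 5 and 5 of 5) and macrophage markers (2, 2, 4 and 3 of 4, in the same order of libraries) had peaks in both tissues. The part of list length and of cell makeup in the member counts was not tested. When the rule was applied to the 24333 best-scoring peaks of each list, it gave 2312 members.

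About as many unclustered yolk-sac-only distal regions lay inside genes as outside. Of 15862 such regions, 8174 were intragenic, or 51.5% (50.8% to 52.3%). With the higher-scoring 50% of each list the share was 42.4%, and with lists of equal length 43.3%, so intragenic regions were then the smaller part. Protein-coding gene bodies cover 38.2% of the chromosomes up to the last annotated gene of each, 1040 of 2722 Mb. The intragenic share was 57.8% (56.1% to 59.5%) of unclustered liver-only distal regions, 45.3% (42.7% to 48.0%) of clustered yolk-sac-only regions and 39.7% (38.2% to 41.3%) of distal regions called in all 4. Of these 4 classes, the 2 unclustered tissue-only classes had the highest shares. These intervals cover counting error only.

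The intragenic share of all distal peaks, members included, was then compared between the libraries. It was 51.6% in liver replicate 1, 51.4% in liver replicate 2, 50.5% in yolk sac replicate 1 and 50.7% in yolk sac replicate 2. The groups did not overlap, with a liver mean of 51.5% ± 0.0811 and a yolk sac mean of 50.6% ± 0.165 (SD, n = 2). The difference of -0.886 percentage points (yolk sac minus liver) gave p = 0.333 in the exact two-sided permutation test, the smallest p that 2 libraries against 2 allow. With lists of equal length the difference was -9.27 points, again with p = 0.333 by exact permutation. In the higher-scoring 50% of the peaks the difference was -1.14 points with p = 0.667 by exact permutation. A difference between the tissues could therefore not be shown by this test.

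Members were narrow and mostly of middle or low rank. Their median width was 802 bp (quartiles 602 and 1152), against 852 bp for intergenic yolk-sac-only regions, 852 bp for intragenic liver-only regions and 1302 bp for intragenic regions called in all 4. Scores are those the authors deposited, and each was read only as a percentile within its own list. The median percentile of members was 42.3 in yolk sac replicate 1 (quartiles 25.9 and 65.3) and 34.5 in yolk sac replicate 2 (quartiles 19.1 and 55.6). Intergenic yolk-sac-only regions had medians of 52.0 and 39.4, and intragenic regions called in all 4 had 58.6 and 52.3 in the same lists. Intragenic liver-only regions had medians of 39.9 and 33.4 in the liver lists, which are ranks in lists of other lengths.

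A region that ranked high in one yolk sac list tended to rank high in the other. Over the 8174 members the rank correlation of the percentiles was 0.63 (Spearman) and the linear one 0.65 (Pearson), as a description across regions of the same 2 libraries. The median absolute difference between the 2 percentiles was 13.6 points. Both percentiles were above 50 in 1928 members (23.6%) and above 90 in 196 (2.40%).

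**Figure D1:**
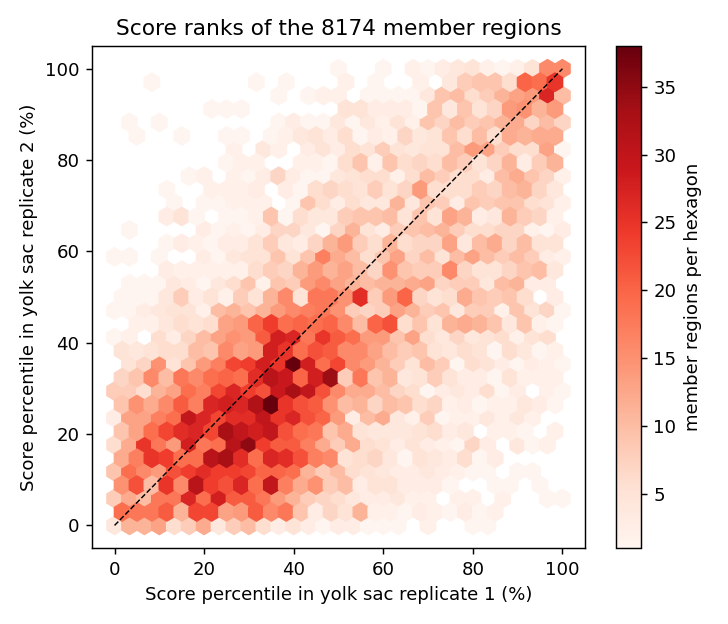
Score percentile of each of the 8174 members in yolk sac replicate 1 (horizontal axis, %) and in yolk sac replicate 2 (vertical axis, %), with the number of members per hexagon as colour and the line of equal percentiles dashed. Most members lie at low to middle percentiles in both lists, and 196 lie above 90 in both.

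Members stood alone more often than in company, counting only other yolk-sac-only distal regions as neighbours. Chains of 1 held 53.5% of members and 53.1% of intergenic yolk-sac-only regions. They held 68.4% of intragenic liver-only regions and 81.2% of intragenic regions called in all 4, each chained with regions of the same call. There were 4370 members in chains of 1 region, 2184 in chains of 2, 1160 in chains of 3 and 460 in chains of 4. The lower of the 2 percentiles had a median of 27.4, 31.2, 32.1 and 31.0 in these chain sizes. Just beyond the limit, chains of 5 held 590 regions, 266 of them intragenic, with a median of 31.2 for the intragenic ones. The largest gap joined was 12498 bp and the smallest not joined was 12548 bp. Near the other limit, 30 members had a start 501 to 550 bp away, the nearest at 502 bp in Sipa1l1. With a start 451 to 500 bp away there were 46 yolk-sac-only regions, counted both inside and outside genes. The median of the lower percentile was 29.6 for those 30 members and 33.5 for those 46 regions, which are unlike sets. The chain limit cut through intragenic regions of like rank, with medians of 31.0 and 31.2 on either side.

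Along the host gene the members were spread widely. The midpoint lay in an exon for 773 members (9.46%) and in coding sequence for 319 (3.90%), so most were intronic. By the longest protein-coding transcript of each host, 2611 members (31.9%, interval 30.9% to 33.0%) lay in the first intron and 1346 (16.5%) in the second intron. First introns make up 24.3% of the bases of the host genes, leaving out Gm20388, a gene model of 4.43 Mb. Without that gene the first intron held 31.5% of members. For intragenic liver-only regions the first intron held 33.1% (31.0% to 35.2%), and for intragenic regions called in all 4 it held 36.0% (33.6% to 38.4%). The first intron thus held more members than its share of bases, and the liver-only class showed the same pattern with an overlapping interval.

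Members lay farther from a start of their host than the other intragenic classes. The median distance was 11.9 kb (quartiles 4.82 and 28.9 kb), against 8.78 kb for liver-only and 8.37 kb for regions called in all 4. Within 5 kb of an own start were 25.8% of members, 31.7% of liver-only regions and 33.6% of those called in all 4. Median rank was higher farther out. The 568 members under 2 kb had median percentiles of 33.7 and 30.3 in the yolk sac lists, and the 1740 members at 10 to 20 kb had 45.9 and 36.5. Beyond that the medians were level, at 45.1 and 36.1 for the 1146 members over 50 kb. Median width was 652 bp under 2 kb and 902 bp over 50 kb.

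**Figure D2:**
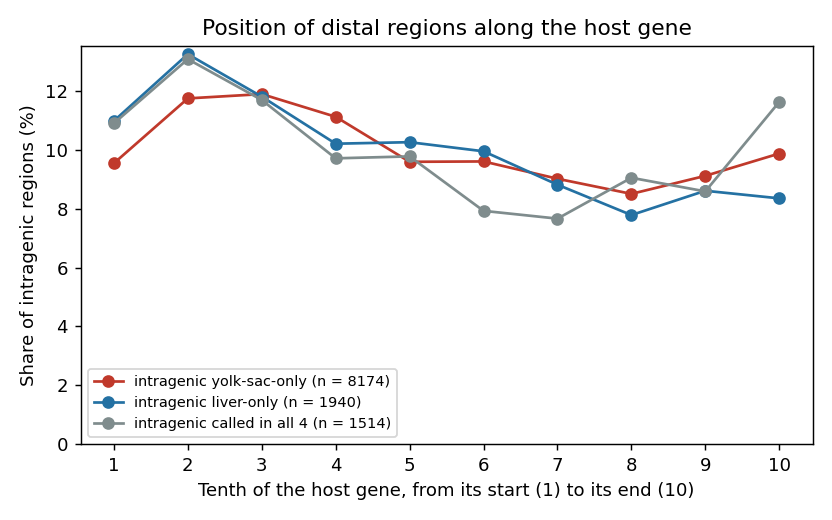
Share of intragenic regions (vertical axis, %) in each of 10 equal segments of the host gene from its start to its end (horizontal axis) for 8174 members, 1940 liver-only regions and 1514 regions called in all 4. Members range from 8.50% to 11.9% per segment, and all 3 classes have their lowest shares past the middle of the gene.

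Members overlapped no liver peak by the rule, so their distance to liver peaks depends on the calls that chose them. The nearest peak of either liver list was a median of 15.4 kb away (quartiles 5.65 and 40.05 kb). A liver peak lay within 1 kb of 274 members (3.35%), and 1645 (20.1%) had none within 50 kb. Intergenic yolk-sac-only regions were farther from liver peaks, with a median of 18.5 kb, 2.56% within 1 kb and 28.0% with none within 50 kb. By chromosome, members ranged from 2.82 per Mb of gene on X to 10.4 per Mb on chromosome 19. Intragenic liver-only regions were also fewest on X, at 0.437 per Mb, so the low value on X was common to both classes.

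The members fell in 4066 host genes, 18.5% of the 21951 protein-coding genes. Of these hosts, 2324 held 1 member, 787 held 2, 416 held 3, 228 held 4, 128 held 5 and 183 held 6 or more. The 955 hosts with at least 3 members held 4276 of the members. Hosts were long, with a median of 60.3 kb against 17.4 kb for all genes. An intragenic liver-only region was also held by 608 hosts (14.95%), against 6.34% of all genes, and one called in all 4 by 664 hosts (16.3%), against 5.69%. These shares are not corrected for the greater length of hosts. Another 247 members lay in more than 1 gene and were given to the host with the nearest start.

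The promoters of most host genes were called in liver too. A promoter peak, within 500 bp of a start of the gene, was called for 3036 hosts in liver replicate 1, 3185 in liver replicate 2, 3578 in yolk sac replicate 1 and 3528 in yolk sac replicate 2. Both yolk sac lists held a promoter peak for 86.3% of hosts against 61.9% of all genes, and all 4 lists for 72.6% against 53.8%. A promoter peak in both yolk sac lists and in neither liver list was found for 337 hosts (8.29%) against 1153 genes in all (5.25%). This share of hosts was 16.7% with the higher-scoring 50% of each list and 12.8% without liver replicate 2, beside 8.84% and 7.48% of all genes. The reverse pattern was found for 27 hosts (0.664%) against 1.01% of all genes, and 431 hosts (10.6%) had no promoter peak in any list against 34.2%. Thus the usual host of a yolk-sac-only intronic region was a gene whose promoter was called in both tissues.

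Gene length moves with these shares, so the hosts were also counted within length classes. Among genes of 10 to 30 kb, 15.4% of those with a promoter peak in all 4 lists held a member, 23.5% of those with a yolk-sac-only promoter and 7.08% of those with none. Among genes of 30 to 100 kb the shares were 35.2%, 41.5% and 13.3%. From 100 to 300 kb they were 63.4%, 59.7% and 23.3%, and over 300 kb 74.7%, 61.0% and 22.5%. Of these 3 patterns, genes without a promoter peak held members least often in every length class. Genes with a liver-only promoter were few, with 1 host of 82 genes up to 10 kb and 1 of 5 over 300 kb. Yolk-sac-only promoters stood above shared ones only in genes under 100 kb, with overlapping intervals from 30 kb up.

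**Figure D3:**
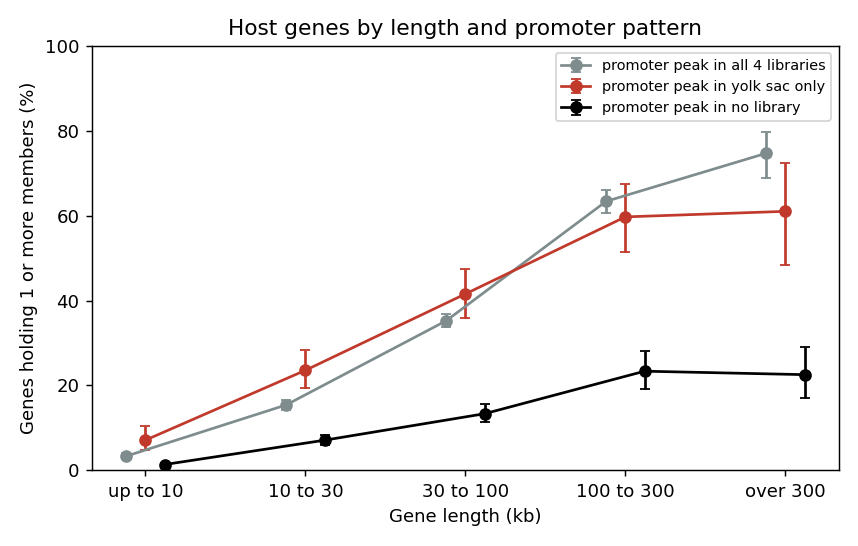
Share of genes holding at least 1 member (vertical axis, %) by gene length class (horizontal axis, kb) for 3 promoter patterns (all 4 lists, yolk sac only, none), with 95% Wilson intervals for counting error as bars. The share rises with length in genes with a promoter peak in all 4 lists, from 3.31% to 74.7%, and stays at or under 23.3% in genes without one.

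Per Mb of gene, members were counted beside liver-only intragenic regions. Genes called at the promoter in all 4 lists had 10.1 members and 2.61 liver-only regions per Mb, a ratio of 3.88. Genes with a yolk-sac-only promoter had 7.70 and 0.677 (ratio 11.4), and genes with a liver-only promoter had 3.90 and 3.55 (ratio 1.10). Over all genes the values were 7.59 and 1.81 (ratio 4.201). With lists cut to equal length, and promoters called anew from them, the ratios fell to 0.745, 3.77 and 0.509, and over all genes to 0.858. Over all genes members then no longer outnumbered liver-only regions, and the order of the 3 ratios was as before. Members per Mb were then 2.75 in genes with a promoter peak in all 4 lists and 2.78 in those with a yolk-sac-only promoter. Pooled over gene lengths, the former were thus no longer the denser. With the full lists, the higher density of the former held only in genes over 100 kb. Up to 10 kb, members per Mb were 6.22 with shared and 15.9 with yolk-sac-only promoters. From 10 to 30 kb they were 10.05 and 16.1, and from 30 to 100 kb 11.1 and 13.4. From 100 to 300 kb they were 11.9 and 8.61, and over 300 kb 6.45 and 2.65. These densities leave out Gm20388, a readthrough gene model of 4.43 Mb on chromosome 8 that spans other genes.

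The members of highest rank lay in genes of many kinds. The member of highest rank, by the lower of its 2 percentiles, was in Msh5, a meiotic relative of mismatch repair genes, at chr17:35034551-35035552, intron 12 of 24, with percentiles of 99.99 and 99.99 (yolk sac replicates 1 and 2, as throughout). The next was in Gucd1 (99.9 and 99.7), intron 2 of 3 at chr10:75465401-75466602, and after it came 1 in Dnm3, a dynamin gene of membrane fission (99.9 and 99.7), intron 14 of 20 at chr1:162224451-162226602. In Lrba, a vesicle trafficking gene, a member at chr3:86635301-86636602 had percentiles of 99.97 and 99.6 and lay 86.6 kb from any liver peak. These 4 members were 1.76, 45.3, 70.1 and 87.7 kb from the nearest start of their host, so the leading ranks were not bound to one distance.

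Of the 12 members of highest rank, 10 had a host with a promoter peak in all 4 lists, beside 6216 of the 8116 members outside Gm20388. The exceptions among the 12 were in Col17a1 and Rbm20. Col17a1, a hemidesmosome collagen gene, had no promoter peak in any list, yet held a member at chr19:47658851-47659952 (intron 32 of 53, percentiles 99.4 and 99.7), 70.4 kb from any liver peak. Rbm20, which encodes a splicing factor of titin RNA, had a yolk-sac-only promoter and a member at chr19:53849851-53850952 (intron 10 of 13, percentiles 99.7 and 98.7). Rbm20 held 6 members, 4 liver-only regions and 1 region called in all 4, so its body was called in both tissues, mostly at different places. The remaining leaders were in Arhgef18, Sfxn5 (mitochondrial carrier), Fam102a, Gfpt2 (hexosamine synthesis), Agap1 (Arf GTPase-activating protein) and Tango6 (Golgi transport), with lower percentiles of 98.7 to 99.2.

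The 10 genes with the most members were long, and all but 1110051M20Rik had a promoter peak in all 4 lists. Wwox, an oxidoreductase gene of 913 kb at chr8:114439655-115352708, held 19 members, and its body had 2 and 4 distal peaks in liver against 25 and 22 in yolk sac. Members of Wwox lay in introns 4 to 8, and 3 of them at chr8:115164551-115165602, chr8:115185851-115187652 and chr8:115199251-115200202 ranked highest, at 99.4 and 89.5, 98.9 and 85.8, and 97.6 and 82.4. The last intron thus held the high-ranking group, 453 kb and more from a start of the gene. Rad51b, a recombination gene, held 17 members (11 and 9 distal peaks against 47 and 41).

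At Phactr2, Bcar3 and Foxp1 the liver lists had 0 to 2 distal peaks in the body. Phactr2, a phosphatase and actin regulator of 267 kb, held 14 members, with 0 and 0 distal peaks in liver against 18 and 15 in yolk sac. Of its members, 7 lay in the first intron, and the one at chr10:13300051-13302052 led with 92.1 and 93.7. Bcar3, an adaptor of adhesion signalling, held 13 (0 and 2 in liver, 24 and 23 in yolk sac), and the transcription factor gene Foxp1 held 13 (1 and 2 against 24 and 16). The yolk sac counts exceeded the liver counts at each of these genes, which the rule for members favours. The next 4 genes had 1 to 11 distal peaks per liver list. Nav2 held 15 members (8 and 10 distal peaks in liver, 28 and 22 in yolk sac), and Maml3, a Notch coactivator gene, held 14 (11 and 10 against 31 and 27). Prkce, a protein kinase C gene, held 14 (3 and 3 against 30 and 24), as did 1110051M20Rik (3 and 1 against 15 and 19). Gm20388 held 58 over its 4.43 Mb.

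**Figure D4:**
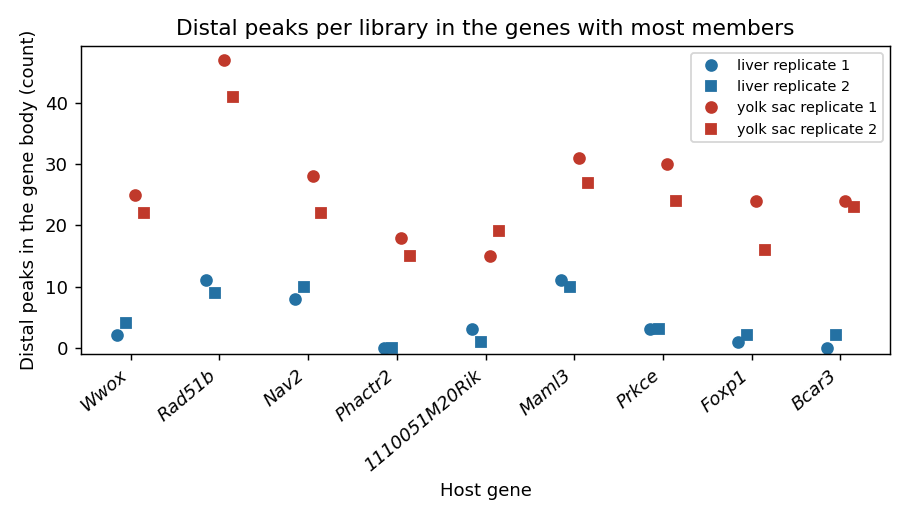
Number of distal peaks in the gene body (vertical axis) in each of the 4 libraries for the 9 genes with the most members after Gm20388, named on the horizontal axis. Points are single libraries, liver in blue and yolk sac in red, and at each gene both yolk sac counts lie above both liver counts.

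Where the host promoter was called in only 1 tissue, members were found in both kinds of gene. Among the 337 hosts with a yolk-sac-only promoter, Lmntd1 held the most with 9 members (1 and 2 distal peaks in liver, 15 and 12 in yolk sac). Grik4, a glutamate receptor gene, Ccdc162 and Nckap5 held 7 each. Among the 27 hosts with a liver-only promoter, Rapgef4, an exchange factor gated by cAMP, and Pcnx2 held 4 each. Vwf, the von Willebrand factor gene, and F5, the coagulation factor V gene, held 3 each, as did the mitochondrial carbonic anhydrase gene Car5a. At F5 the distal peaks were 1 and 1 in liver against 4 and 4 in yolk sac, with a promoter peak in both liver lists only. A yolk-sac-only region inside a gene therefore did not always come with a yolk sac call at that gene's promoter.

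The members were then counted in 13 gene lists, each beside 18.5% of all genes as hosts and 7.59 members and 1.81 liver-only regions per Mb over all genes. The lists differ in gene length, some share genes, and no list was tested against another. Members per Mb were highest in the list of visceral endoderm and nutrient uptake (23.4) and in the imprinted list (21.2), and lowest in Wnt signalling (6.83) and hepatocyte genes (7.57). Both high values leaned on single genes, as Dab2 held 10 of the 30 endoderm members and Kcnq1 12 of the 40 imprinted ones. The lists of matrix, actin, Hippo and TGF-beta genes had 17.5 to 17.99 per Mb. The ranking without Dab2 and Kcnq1 was not computed. The erythroid list was the one with more liver-only regions (26.3 per Mb) than members (14.9 per Mb).

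**Figure D5:**
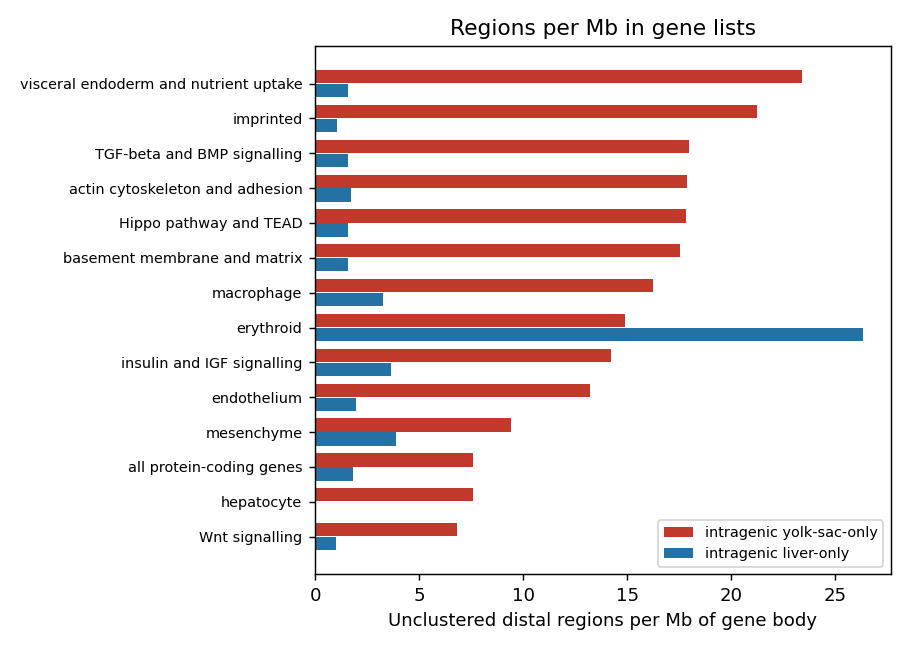
Unclustered distal regions per Mb of gene body (horizontal axis) in the 13 gene lists and in all protein-coding genes (vertical axis), members in red and intragenic liver-only regions in blue. The visceral endoderm list has 23.4 members and 1.56 liver-only regions per Mb, and the erythroid list 14.9 and 26.3.

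In the visceral endoderm list 13 of 30 genes were hosts, with 30 members, and 2 liver-only regions. Distal peaks in its gene bodies numbered 22 and 22 in liver against 76 and 68 in yolk sac. Dab2, an endocytic adaptor that works with the nutrient receptors megalin and cubilin, held 10 of the members, with 0 and 0 distal peaks in liver against 13 and 10 in yolk sac. All 10 lay in its first intron, and the leader at chr15:6383701-6384752 had percentiles of 92.4 and 73.1. A promoter peak of Dab2, at any of its annotated starts, was called in all 4 lists, while distal peaks in its body were called in yolk sac alone. Whether the tissues were called at the same start of Dab2 was not compared.

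Transcription factor genes of endoderm were hosts as well. Hnf4a, a nuclear receptor gene active in liver and visceral endoderm, held 4 members beside 2 regions called in all 4 (5 and 3 distal peaks in liver, 9 and 8 in yolk sac). Its members at chr2:163515451-163516302 (61.1 and 82.7) and chr2:163559201-163559952 (51.7 and 72.8) led. The same gene therefore had both shared regions and yolk-sac-only ones. Gata6 held 2 members (0 and 0 distal peaks in liver, 3 and 2 in yolk sac) and Gata4 held 2 (2 and 3 against 2 and 2). Scarb1, the receptor for high density lipoprotein, held 3 and Npc1, which exports cholesterol from lysosomes, held 1.

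Genes of matrix and cytoskeleton had hosts in 17 of 30 genes in each list. The matrix list had 44 members (17.5 per Mb) and the actin list 62 (17.9 per Mb). Nid1, the basement membrane linker nidogen, held 4 members without a promoter peak in any list, and its body had 0 and 0 distal peaks in liver against 4 and 4 in yolk sac. Fbln1, a fibulin gene, also held 4 (0, 0, 4 and 4) and Loxl1, a lysyl oxidase gene of elastic fibres, held 3 (0, 0, 4 and 3). At these 3 genes the liver lists had no distal peak at all, but this did not hold for the whole matrix list. Its gene bodies had 19 and 15 distal peaks in liver against 110 and 88 in yolk sac, and 4 liver-only regions. Col18a1 held 4 members, with 7 and 6 distal peaks in liver against 10 and 8 in yolk sac.

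Tns3, a tensin that joins integrins to actin, held 11 members, with 1 and 1 distal peaks in liver against 27 and 20 in yolk sac. The member of Tns3 at chr11:8525501-8526502 (intron 13 of 30) had percentiles of 99.6 and 88.0. Palld, the actin bundling gene palladin, held 8 (1 and 0 against 11 and 11), and Pdlim5 held 2, of which the leader at chr3:142348701-142349752 had 98.2 and 97.3. Thus the actin list had both genes with many members and genes with few but high-ranking ones.

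The signalling lists also differed in gene length, with medians of 63.2 kb (TGF-beta and BMP), 72.6 kb (Hippo) and 31.7 kb (Wnt). The TGF-beta and BMP list had 17 of 30 genes as hosts and 45 members (17.99 per Mb), and the Hippo list 11 of 23 and 34 (17.8 per Mb), while the Wnt list had 8 of 30 and 20 (6.83 per Mb). Among the intracellular BMP mediators, Smad1 held 3 members in its first intron, and that at chr8:79382451-79383602 had 99.98 and 93.4. Smad9 held 2, led by 90.3 and 99.2. Of receptors, Acvr2b held 2 and Tgfbr2 held 1. Of ligands and their carriers, Bmp7 held 3 and Ltbp1, which tethers latent TGF-beta in the matrix, held 7 (0 and 0 distal peaks in liver, 12 and 7 in yolk sac). Members in this list were thus found at ligand, receptor and mediator genes alike.

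In the Hippo list the hosts included Wwc1 and Wwc2, upstream scaffold genes (4 and 5 members), Amot (3), the DNA-binding factors Tead1 (6) and Tead4 (4), and their cofactor gene Vgll4 (4). Wwc2 had 0 and 0 distal peaks in liver against 7 and 5 in yolk sac. In the Wnt list Tcf7l1 held 5 (0, 0, 8 and 6) and the coreceptor gene Lrp5 held 4 (2, 1, 8 and 5). The insulin and IGF list had 16 of 30 genes as hosts, with 39 members (14.2 per Mb) and 10 liver-only regions. Its hosts Grb10 (6 members) and Igf2r (3) are also in the imprinted list. Foxo3, a transcription factor gene downstream of insulin, held 1 member and 4 liver-only regions.

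Genes of vessel, mesenchyme and blood cells gave a mixed picture. The endothelial list had 17 of 30 hosts and 34 members (13.2 per Mb). Pecam1, an adhesion gene of endothelium, held 4, and its leader at chr11:106657601-106658652 had 99.1 and 90.2. Ets1 also held 4, at up to 92.9 and 84.2. The mesenchymal list had 12 of 30 hosts but 17 members (9.44 per Mb) beside 7 liver-only regions, of which Zeb2 alone held 6 with 1 member.

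The erythroid list had 6 of 20 hosts, 13 members and 23 liver-only regions. Its distal peaks numbered 41 and 44 in liver against 23 and 21 in yolk sac, and it was the only one of the 13 lists with more in liver. Zfpm1, the GATA cofactor FOG1, held 3 members and 5 liver-only regions, and its leading member at chr8:122335851-122336852 (94.1 and 89.1) had its midpoint in coding sequence. Sptb, the spectrin gene of the red cell membrane, held 6 members and 2 liver-only regions, while Bcl11a, a repressor of fetal globin, held 1 and 7. The macrophage list had 5 of 15 hosts and 15 members, with 6 in Cx3cr1 and 4 in Runx1. These genes are annotated over 168 kb and 225 kb, against a list median of 31.6 kb. Overlap of these spans with other genes was not examined. The hepatocyte list had 3 of 20 hosts and 4 members, in Nr1h4 (2), Prox1 and Fga, none with a lower percentile above 26.8.

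The imprinted list had 10 of 34 annotated genes as hosts, with 40 members and 2 liver-only regions, and distal peaks of 11 and 13 in liver against 84 and 68 in yolk sac. Kcnq1, a potassium channel gene whose intron holds the start of an imprinted antisense RNA, held 12 of them (3 and 2 distal peaks in liver, 29 and 24 in yolk sac). In Kcnq1, 6 members lay in the last intron, and those at chr7:143407251-143408752 (95.5 and 98.5) and chr7:143394701-143396002 (90.1 and 90.3) led. The high ranks thus lay toward the 3′ end of the gene. Grb10, an adaptor that restrains insulin signalling, held 6 (0 and 2 distal peaks in liver, 7 and 8 in yolk sac), and Igf2r, which clears IGF2, held 3 (0 and 0 against 4 and 3). Whether a member was transcribed from 1 parental copy cannot be read from these peak lists.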

How the data were processed

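Each of the 4 libraries had 1 deposited list of peaks with a score, and no value was pooled over replicates. The score is the authors' deposited value without a unit, at least 0.80 in each list, and was used only to rank peaks within a list. Per the submitters' processing notes, Bowtie2, bedtools and build mm10 were used. Their versions, the dREG settings and the filters are not given in the sources used here. Within a list, the smallest gap between peaks was 548 bp. Genes and starts came from GENCODE M21 (GRCm38). Merging, chaining, host assignment and counting were done with Python 3.11.15, numpy 2.4.6, pandas 2.3.3, scipy 1.17.1 and matplotlib 3.10.9, and tested on simulated data. Shares carry 95% Wilson intervals, which cover counting error only. The 2 libraries of a tissue were compared with those of the other by exact permutation. Replicate numbers carry no pairing in the labels.

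The members and gene lists were chosen with earlier results of these data known. The genes named are the hosts of the 12 members with the highest lower percentile, the 10 genes with most members, up to 6 hosts per gene list by that percentile, the regions nearest the thresholds, and the hosts with most members among those with a promoter peak in 1 tissue only, which were added after the values were seen. Nearby or overlapping genes can share a peak. Sequences at member midpoints were not analysed here, as no genome was used. The sequence windows replaced them and were chosen after seeing the data. Features of the hosts' own promoters are not reported, since 3135 of 4065 host symbols (77.1%) were in the RefSeq table, under the 80% set for such a check.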

Additional observations from a re-analysis of the deposited data

How the results depend on the processing

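List length moved the values most. With the higher-scoring 50% of each list there were 2739 members, with an intragenic share of 42.4%, a first intron share of 33.0%, hosts with a promoter peak in both yolk sac lists at 71.2% (50.4% of all genes) and hosts with a yolk-sac-only promoter at 16.7% (8.84% of all genes). With every list cut to its 24333 best-scoring peaks the values were 2312 members, 43.3%, 30.1%, 73.5% (51.4%) and 5.74% (2.61%), and members per Mb, an alternative added after seeing the data, fell to 2.75, 2.78 and 1.91 in genes with shared, yolk-sac-only and liver-only promoters. The intragenic share was thus below 50% under both settings. Under both the promoter shares of hosts were above those of all genes. Leaving out 1 library at a time gave 8520 to 11998 members, intragenic shares of 51.5% to 53.4%, first intron shares of 30.9% to 32.6%, and promoter shares of 86.3% to 87.6% (both yolk sac lists) and 8.49% to 12.8% (yolk sac only). The value of 12.8% came without liver replicate 2 (539 of 4203 hosts). The difference in intragenic share between the tissues stayed negative, from -1.002 to -0.769 points without 1 library -9.27 with lists of equal length and -1.14 (exact permutation p = 0.667) with the higher-scoring 50%. With the replicate number as a block that difference was again -0.886, with p = 0.5 by exact permutation, the smallest that design allows. The cause of these shifts was not tested, beyond the fewer peaks that shorter lists hold. Other start windows, chain gaps, merge distances and host rules, and leaving out Gm20388 (added after seeing the data, 8116 members), kept the count of members within 1.5 times. The 2 alternatives for motif windows at member midpoints were not run, since they need a genome. Depth is unknown, so a region missing from a list was not detected there and is not shown to be absent.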
